A study of Mus musculus with 4 samples.

Results

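Hybrid reads listed with the mouse miRNAs miR-2137 and miR-8098 were examined in AGO2-CLASH libraries of mouse mesangial cells (MMC). Members were all reads whose miRNA name was mmu-miR-2137 or mmu-miR-8098, and each distinct read of a library was counted with the number of times it was sequenced. They made up 2731 of 36318 chimeric reads and 1826 of 29067 distinct reads, where a sequence found in several libraries counts once in each of them. miR-8098 (1665 reads, 1300 distinct) held rank 2 and miR-2137 (1066 reads, 526 distinct) rank 4 of the 1643 mature miRNAs listed. Both miRNAs were chosen by these read numbers, so that the numbers themselves are given as a description, with no test. Whether the differences between the miRNAs also played a part in the choice is not known, and their p-values below are given with that limit. No read was listed with both miRNAs, and none of their reads was listed with any other miRNA.

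MMC are the contractile, matrix-producing cells of the kidney glomerulus. They were isolated from wild-type (WT) C57BL/6J mice and from miR-379KO mice, which carry a CRISPR-Cas9 deletion in the miR-379 gene, and were grown in serum-containing medium with no treatment. AGO2 was immunoprecipitated and the RNAs held by it were joined with T4 RNA ligase, so that a sequenced hybrid carries a miRNA segment and a target segment. There were 2 libraries of each genotype, labelled A and B and called WT A, WT B, KO A and KO B here. None of the sources used here says that the letters stand for separate mice, so the spread within a genotype may be technical.

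The libraries held 16324 (WT A), 7192 (WT B), 6326 (KO A) and 6476 (KO B) chimeric reads. Among fixed lists of cell markers, 9 of 11 mesangial genes were listed as targets, with 717 reads of any miRNA. The leading marker was Fn1 (fibronectin) with 483 reads, whereas Itga8 and Thy1 were at 0. Of the podocyte list, 3 of 5 genes had 5 reads in all, and no gene of the endothelial, tubular or leukocyte lists was listed.

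A miRNA guides Argonaute proteins such as AGO2 to RNAs that pair with its seed, the bases that follow the first base at its 5′ end. In CLASH, a read supports such a pair when a segment is a miRNA and the rest is the RNA bound by it. Ribosomal RNA, the RNA core of the ribosome, is by far the most abundant RNA of a cell and is often present in immunoprecipitates. In mouse assemblies a copy of the ribosomal RNA sequence on chromosome 17 is annotated under several gene names, among them Rn18s-rs5, Gm42418 and Gm26917.

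The mature sequences (RefSeq, GRCm38.p6) are shown first because the alignments below are counted on them. Capitals mark the seed, bases 2 to 8, and the seeds of the pair differ.
miR-2137: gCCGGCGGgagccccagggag
miR-8098: gCUAUGGUcgcuggcucccaa
Mature miR-2137 lies on the plus strand at chrX:72992113-72992133, within the Mir2137 hairpin at chrX:72992079-72992144, inside the gene Zfp185 but in none of its annotated exons. Mature miR-8098 lies on the plus strand at chr14:62837797-62837817, within the Mir8098 hairpin at chr14:62837721-62837857, in an annotated exon of Wdfy2 and opposite an exon of the non-coding gene Gm26536. Each mature sequence matched the GRCm38 assembly exactly at 1 place, its own locus.

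Most of the miRNA segments in the reads differed from the mature sequences. The next lines show the most frequent base of the reads over 30 nt, with the segment that the authors aligned to the miRNA in capitals, and the same window of the RefSeq hairpin.
miR-2137 reads: cggagaaGCCGGCGGGAGCCCCGGGGAGag
Mir2137 hairpin: uuggcuuGCCGGCGGGAGCCCCAGGGAGua
miR-8098 reads: ggttccttTGGTCGCTCGCTCCtctcctac
Mir8098 hairpin: cagggcuaUGGUCGCUGGCUCCcaaaggcc
Positions run from 1 at the 5′-most base of the mature miRNA. The miR-2137 segment carried A16G (miRNA base first, read base last) and the miR-8098 segment carried G13C. The flanks of both segments differed from those of the hairpins at most bases shown.

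For miR-2137, 986 of 1066 reads (92.5%) had the single segment shown, aligned over miRNA bases 1 to 21. The read base of A16G was found in 1056 of 1066 reads and the miRNA base in 7. By library the read base was present in 99.4% (WT A), 99.3% (WT B), 99.0% (KO A) and 97.7% (KO B) of reads. All 4 libraries thus lay close together, and the difference was seen in 519 of 526 distinct reads. A further 22 reads stopped at base 15, just before the differing base. In 31 reads, all sense, the alignment equalled the mature sequence at every aligned base.

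For miR-8098, 1593 of 1665 reads (95.7%) had the segment shown, aligned over miRNA bases 5 to 18. The read base of G13C was found in 1643 of 1645 sense reads and the miRNA base in 2. It was present in all sense reads of WT A and KO A, in 99.66% of those of WT B and in 99.73% of those of KO B. An alignment without any mismatch was found in 18 reads, all of them antisense, so that no sense read equalled the mature sequence over its alignment. The alignment began at base 5, so that seed bases 2 to 4 were outside it. The base of the hairpin was found at position 2 in 99.6%, at position 3 in 99.5% and at position 4 in 0.122% of sense reads covering it.

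The sequence next to the aligned segment was read as well. The 5 bases before the miR-2137 segment were gagaa in 963 of 994 reads with the full segment and ggctt, as in the hairpin, in 0. The 2 bases after it were ag in 914 of 919 reads and ta, as in the hairpin, in 0. For miR-8098 the 5 bases before were tcctt in 1570 of 1587 reads and the 5 bases after were tctcc in 1362 of 1516 reads, whereas the flanks of the hairpin (ggcta and caaag) were found in 0. When the miR-2137 segment came last in the read, 601 of 828 reads (72.6%) ended 2 bases after it, at position 23 on the miRNA scale. The corresponding miR-8098 reads ended most often at position 31, in 455 of 1102 reads (41.3%).

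**Figure D1:**
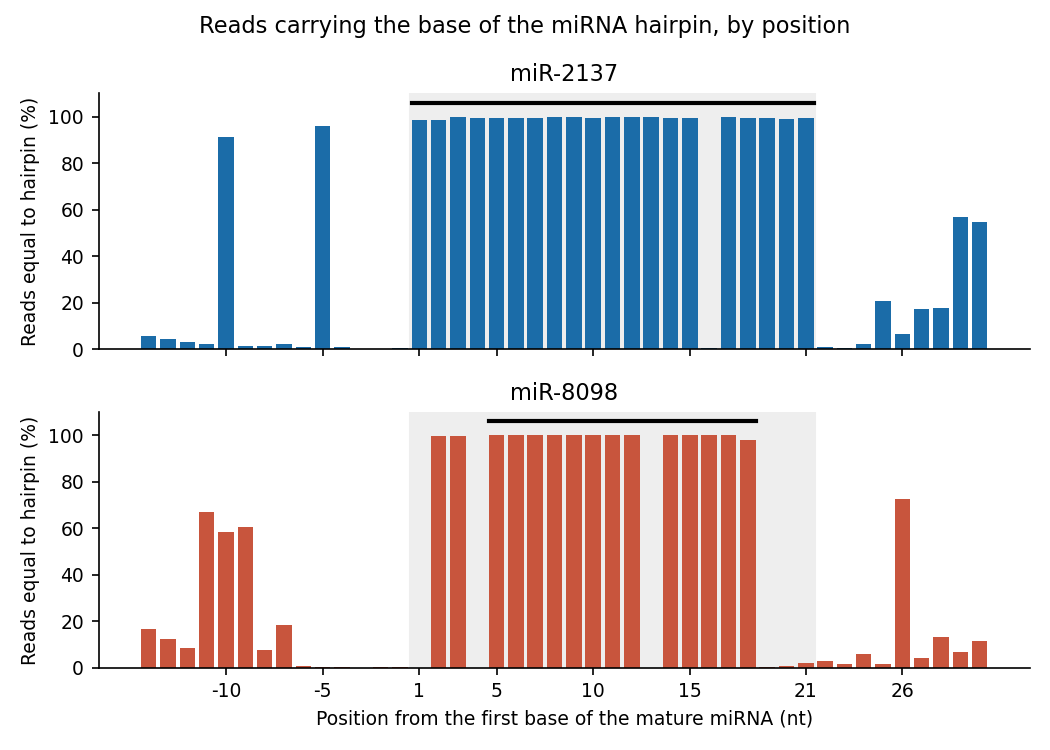
Percent of sense reads (y axis) that carry the base of the RefSeq hairpin at each position counted from the first base of the mature miRNA (x axis, nt), for miR-2137 (top) and miR-8098 (bottom). Grey marks the mature miRNA and the black line the usual aligned segment. Within the segments position 16 (0.657%) and position 13 (0.122%) stand apart. Outside them the highest values are at positions -5 (95.9%) and -10 (91.4%) of miR-2137 and positions 2 (99.6%), 3 (99.5%) and 26 (72.5%) of miR-8098, and every other position is at 66.9% or less.

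The miR-8098 segment with its flanks was found in 18S ribosomal RNA. The 30 nt shown are identical to chr17:39846465-39846494 (plus strand, GRCm38), within Rn18s-rs5, which RefSeq names 18S ribosomal RNA, related sequence 5. The segment itself is chr17:39846473-39846486, bases 121 to 134 of the 1849-nt 18S sequence. A window of 37 nt around it had 1 exact match in the assembly, at this place, although the segment of 14 nt alone had 5. In the 1643 reads with G13C, the exact match to 18S ran on past the segment and had a median length of 39.0 nt in all (interquartile range 31 to 47). By library the median was 39.0 (WT A), 35.0 (WT B), 40.0 (KO A) and 39.0 nt (KO B), and 99.6% of all these reads matched over at least 20 nt. Most of the reads thus held a stretch of 18S at least as long as a miRNA. The stretch started most often at 18S base 111 (498 reads) and ended most often at base 147 (458 reads).

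The miR-2137 segment could not be placed in the same way. Neither its 21 nt nor a window of 37 nt around it had an exact match in the assembly, with 0 on either strand. A ribosomal DNA repeat with 28S was not searched as a reference of its own, so that the 0 matches hold for this assembly only and its locus was not placed here. Among the 33587 reads listed with neither miRNA, the 21-nt segment occurred in 2. The 14-nt segment of miR-8098, by contrast, occurred in 857 of these reads, 582 of them in WT A.

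Whether a common segment that differs from the mature sequence was particular to this pair was examined in the other miRNAs. Of 59 mature miRNAs with at least 50 sense reads, 47 had a sequence in the RefSeq table used. Among the 45 other than the pair, the most frequent segment differed from the mature sequence in 13 (28.9%). In 6 of these 13 at least 90% of the reads shared the segment, as in miR-2137 and miR-8098. Among the 13 others whose most frequent segment was 20 nt or longer, 1 differed, and the miR-2137 segment of 21 nt belongs to this class.

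The pair differed in the length of the alignment. For miR-2137 the mean aligned length was 20.5 nt in WT A, 20.9 in WT B, 20.7 in KO A and 20.6 in KO B. For miR-8098 it was 13.98, 13.94, 13.94 and 13.96 nt in the same order. The ranges did not overlap, and the mean difference within a library was 6.71 ± 0.18 nt (SD, n = 4 libraries, exact sign-flip test, two-sided, p = 0.13, the smallest value that 4 libraries allow). With alignments free of mismatches, which 3 libraries held for both miRNAs, the difference was 1.75 nt. An alignment over 21 nt was found in 999 miR-2137 reads (93.7%) and in 0 miR-8098 reads, in which 14 nt was the length of 1597 (95.9%) and 15 nt the greatest length. All other miRNAs together had means of 14.96 (WT A) to 15.5 nt (KO B), so that miR-2137 lay above these means and miR-8098 below them in each library. Long alignments were not particular to miR-2137, since 14.8% (WT A) to 21.3% (KO B) of the other reads aligned over 20 nt or more.

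Both miRNAs were read almost wholly in the sense direction, and miR-2137 had no antisense read. miR-8098 reads were sense in 98.9% (WT A), 99.7% (WT B), 97.4% (KO A) and 98.9% (KO B), with 20 antisense reads in all. The difference within a library was 1.28 ± 0.95 percentage points (SD, n = 4 libraries, exact sign-flip test, two-sided, p = 0.13). In all other miRNAs between 68.4% and 69.2% of reads per library were sense.

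The order of the segments in the read varied with the library. The miRNA segment came before the target in 38.7% (WT A), 12.1% (WT B), 11.6% (KO A) and 35.9% (KO B) of miR-2137 reads. For miR-8098 the percentages were 30.9, 48.6, 33.6 and 25.9 in the same order. miR-2137 was lower than miR-8098 in WT B and KO A and higher in the remaining libraries, and the mean difference of -10.2 ± 22.8 percentage points was within the spread between libraries (SD, n = 4, exact sign-flip test, two-sided, p = 0.5) and came to -1.42 without WT B, -6.25 without KO A, -16.2 without WT A and -16.9 without KO B. In the other miRNAs the miRNA came first in 51.3% to 53.1% of reads.

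Ribosomal RNA genes were the main targets listed with both miRNAs. Of miR-2137 reads, 90.1% (WT A), 97.6% (WT B), 97.0% (KO A) and 88.3% (KO B) had a target on the ribosomal RNA list. For miR-8098 the values were 64.6%, 87.3%, 77.2% and 68.4%. miR-2137 was higher in each library, by 18.8 ± 6.3 percentage points (SD, n = 4 libraries, exact sign-flip test, two-sided, p = 0.13). With alignments free of mismatches, which 3 libraries held for both miRNAs, the difference turned to -3.82 percentage points. In all other miRNAs pooled, 27.5% to 35.4% of reads per library had such a target, below both members in each library. The pooled value does not show that each other miRNA lay below the pair.

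Different names of the list made up these totals. miR-2137 was listed with 40 genes, of which 23 had 1 read and 3 had at least 10. Gm42418, annotated as a long non-coding RNA gene at chr17:39846958-39848788, had 854 of its reads (119 from WT A, 392 from WT B, 266 from KO A and 77 from KO B). Rn18s-rs5 had 127 reads (43, 34, 25 and 25 in the same order) and Gm26917, at chr17:39843013-39846341, had 32 (1, 17, 3 and 11). The next genes by read number were Map1b, a microtubule-associated protein, with 5 reads and Col1a1, a chain of type I collagen, with 4. Gm42418 was first in each library, and its reads were most frequent in WT B and KO A.

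miR-8098 was listed with 183 genes, of which 124 had 1 read and 6 at least 10. Rn18s-rs5 had 1190 reads (472 from WT A, 255 from WT B, 207 from KO A and 256 from KO B), and no other gene of the ribosomal RNA list was listed with it. Lars2, the mitochondrial leucyl-tRNA synthetase, had 175 reads (83, 9, 20 and 63). Acta2, smooth muscle actin and a mesangial marker, had 13 reads (7, 0, 3 and 3) and Flna, the actin cross-linker filamin A, had 10 (7, 2, 0 and 1). Gm28661 and mt-Co2, a subunit of cytochrome c oxidase, shared the same 10 reads (8, 0, 1 and 1), which cannot be divided between them. Rn18s-rs5 was first in each library and Lars2 next.

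**Figure D2:**
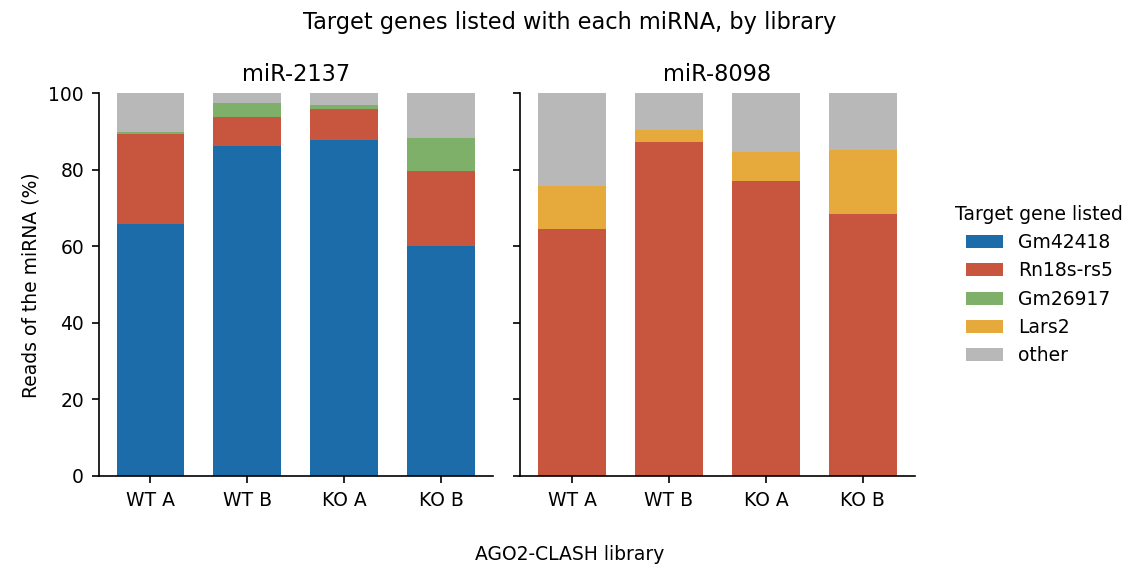
Percent of the reads of each miRNA (y axis) listed with each target gene, by library (x axis), for miR-2137 (left) and miR-8098 (right); bars add up to 100%. Gm42418 is the largest part of each miR-2137 bar and Rn18s-rs5 of each miR-8098 bar, from 64.6% in WT A to 87.3% in WT B.

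The pair shared 5 target genes, 12.5% of the genes of miR-2137 and 2.73% of those of miR-8098. Likeness was measured as the sum over genes of the smaller of the shares of reads, over 109 miRNAs with at least 50 reads. Between the pair it was 12.3%, close to the median of miR-2137 with all others (12.6%) and of miR-8098 with all others (12.1%). miR-2137 was most like miR-6392-5p (80.1%, 481 reads), miR-365-3p (79.8%, 62 reads) and miR-6941-3p (79.8%, 129 reads). miR-8098 was most like miR-7039-3p (72.4%, 57 reads), miR-7087-3p (71.2%, 73 reads) and miR-5627-3p (71.1%, 188 reads). These values can rest largely on 1 gene name. Gm42418 alone made up 80.1% of miR-2137 reads, and Rn18s-rs5 made up 71.5% of miR-8098 and 11.9% of miR-2137 reads. Likeness was counted by gene name, so that 18S targets under different names did not count as shared. Of other fixed lists, miR-8098 was listed with 1 mitochondrial gene (10 reads), 2 ribosomal protein genes (2 reads), 1 gene of the miRNA machinery (1 read) and 2 mesangial markers (17 reads), and miR-2137 with 1 mesangial marker (1 read).

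The Rn18s-rs5 and Gm42418 targets are the same locus under opposite annotated strands. The transcript listed as Rn18s-rs5 is annotated on the minus strand at chr17:39846353-39848201, whereas Gm42418 is annotated on the plus strand and starts at 18S base 606. All Rn18s-rs5 targets of both miRNAs were antisense to the listed transcript and all Gm42418 targets were sense. In both cases the RNA in the read had the plus-strand sequence, which is the strand that RefSeq gives for Rn18s-rs5. Positions are therefore given on that strand, from 1 at the first base of 18S. Target segments equalled the 18S sequence at every base in 96.8% of Gm42418 reads and 88.2% of Rn18s-rs5 reads of miR-2137, but in 38.6% of Rn18s-rs5 reads of miR-8098, so that its positions are those of the alignment.

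miR-2137 targets fell on a short stretch of 18S. The most frequent start was base 1128 (711 reads) and the most frequent end base 1153 (363 reads), which correspond to chr17:39847480-39847505. This stretch is shown because it was the target of most miR-2137 hybrids, with capitals for the complement of seed bases 2 to 7.
18S bases 1128 to 1153: gaccCGCCGGgcagcttccgggaaac
At least 20 of its bases were in the target of 65.7% (WT A), 86.1% (WT B), 87.8% (KO A) and 59.4% (KO B) of all miR-2137 reads. Reads listed with neither miRNA had it as target in 0.785%, 0.652%, 0.417% and 1.0% in the same order, 247 reads over 44 miRNAs. It was not particular to miR-2137, since it was the target in 135 reads of miR-3960 (33.8% of its reads), 18 of miR-1946b (15.4%), 7 of miR-29b-2-5p (6.60%), 6 of miR-5623-5p (40.0%) and 5 of miR-6954-5p (21.7%). Of the remaining 18S targets of miR-2137, 127 reads were listed as Rn18s-rs5 and lay between bases 217 and 369, and 2 were listed as Gm42418.

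miR-8098 targets lay between bases 1 and 309 of 18S, around the segment that had been aligned as the miRNA. The most frequent end was base 202, in 483 of 1190 reads (40.6%). The target covered all of bases 121 to 134, the miRNA segment itself, in 496 reads (41.7%), and started after base 134 in 582 (48.9%). By library the covering reads were 58.5% (WT A), 27.5% (WT B), 27.5% (KO A) and 36.3% (KO B) of the reads with an 18S target, WT A being the highest. Reads listed with neither miRNA covered these bases with their target in 3.67%, 1.38%, 1.22% and 1.57%, again with WT A highest.

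Among miR-8098 reads with G13C, 1170 thus had 18S sequence in both segments. They made up 63.5% (WT A), 87.0% (WT B), 75% (KO A) and 67.1% (KO B) of miR-8098 reads. The 14-nt segment occurred at least 2 times in the same read in 475 of them, that is in 57.8%, 27.6%, 25.4% and 34.3% by library. In the 579 reads whose target started after the segment, the median target was 18S bases 149 to 202. The target and the stretch read with the miRNA segment shared more than 2 bases of 18S in 23.1% of them, met within 2 nt (overlap or gap) in 30.2% and lay more than 2 nt apart in 46.6%. The miRNA segment came first in 29.7% of these reads and in 49.9% of the reads whose target covered the segment.

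**Figure D3:**
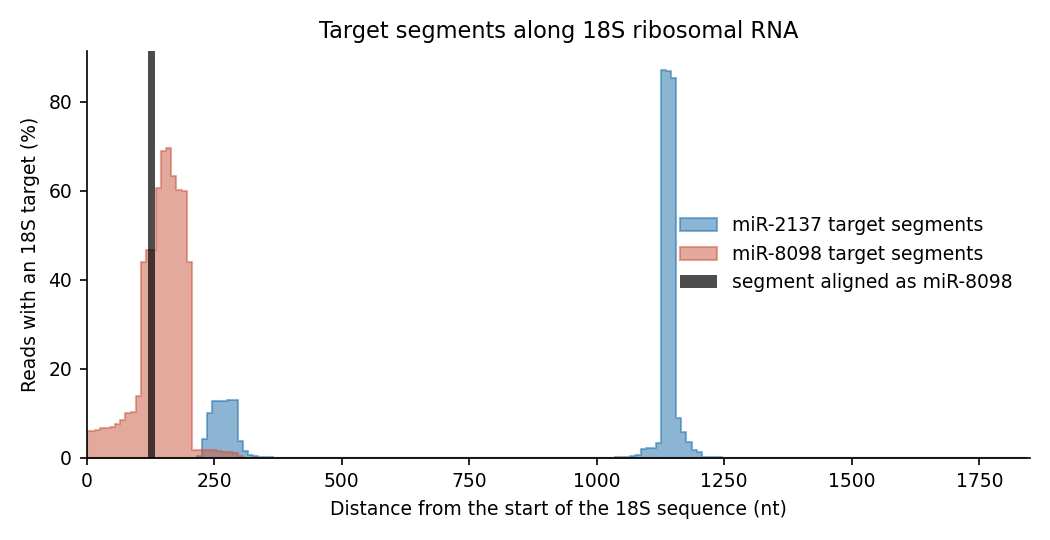
Percent of reads with an 18S target (y axis) whose target segment holds each position, counted from the start of the 18S sequence (x axis, nt), over the 4 libraries, for miR-2137 and miR-8098. The black band marks the segment aligned as miR-8098 (bases 121 to 134). miR-2137 targets peak at bases 1128 to 1153, whereas miR-8098 targets lie next to or over the band.

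The Lars2 targets of miR-8098 were also a single region. Their median position was bases 3166 to 3239 of a 3894-nt transcript, and all 175 reads lay between bases 3104 and 3287. The median target was 76.0 nt long. It equalled the Lars2 transcript at every base in 72 reads (41.1%), so that the remaining reads carried differences from it.

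The energies deposited with the pairs were lower for miR-8098. The mean minimum free energy (MFE, deposited without a unit, a lower value standing for stronger pairing) of miR-2137 was -26.8 (WT A), -27.5 (WT B), -27.4 (KO A) and -27.1 (KO B). That of miR-8098 was -28.4, -31.3, -30.2 and -29.5. The ranges did not overlap, and miR-2137 was higher by 2.64 ± 0.90 (SD, n = 4 libraries, exact sign-flip test, two-sided, p = 0.13). The other miRNAs had means between -24.5 and -23.9.

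These energies did not all refer to the RNA in the read. Over all miRNAs, the deposited pairing used the strand of the listed transcript, which is the complement of the read for antisense targets (12614 of 13809 lines, against 7 on the strand of the read and 1188 with under 10 nt to compare). For miR-8098 71.8% of reads, and for miR-2137 11.1%, had their pairing on the complement. The most frequent deposited target sites are printed to show this, with the bases that the authors marked as paired in capitals.
miR-2137 with Gm42418 (MFE -28.48): attcccatgaCCCGCCGGg
miR-2137 with Rn18s-rs5 (MFE -23.84): aagCCGCCGGc
miR-8098 with Rn18s-rs5 (MFE -33.73): agGGGGGTCAGCGCCCGTGGg
miR-8098 with Rn18s-rs5 (MFE -29.37): agaGGAGCGAGCGACCAAAGg
miR-8098 with Lars2 (MFE -28.01): gtGGCGGCCAAGCGTTCATAGc
The Gm42418 and Lars2 sites are on the strand of the read, and the Rn18s-rs5 sites on its complement. The site at -33.73 accounted for 633 and that at -29.37 for 476 of the 1190 Rn18s-rs5 reads of miR-8098. The latter is the complement of the 18S stretch that was aligned as miR-8098, and sites holding that complement made up 550 reads (46.2%).

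Energies were recomputed for both strands with RNAduplex, which gives the energy of the best pairing between a pair of RNAs, from the mature miRNA and the whole target segment. For miR-8098 the mean over reads was -17.0 kcal/mol on the strand in the read and -26.3 kcal/mol on the complement. By library the strand in the read gave -17.2 (WT A), -15.8 (WT B), -16.4 (KO A) and -18.0 kcal/mol (KO B), and the complement -25.1, -28.9, -27.2 and -25.9 kcal/mol. Pairing on the strand in the read was weaker in each library. This order is partly set by the sequences, since 496 miR-8098 targets covered the 18S stretch that was aligned as the miRNA. The complement of such a target holds the complement of that stretch, so the order is not a separate result for these reads. For miR-2137 the means were -25.7 kcal/mol on the strand in the read and -26.7 kcal/mol on the complement, and the order changed between libraries. Its antisense targets alone, all of them Rn18s-rs5, kept 1 order. The strand in the read gave -35.5 (WT A), -35.7 (WT B), -35.7 (KO A) and -35.4 kcal/mol (KO B). The complement gave -24.9, -25.3, -24.9 and -24.9 kcal/mol, so that pairing on the strand in the read was stronger for these targets. The order of the pair was also turned, since on the strand in the read miR-2137 was lower than miR-8098 in each library (-27.2 against -17.2 kcal/mol in WT A).

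The seed match followed the same split. The complement of seed bases 2 to 7 was present in the target segment, as read, in 94.5% (WT A), 94.3% (WT B), 96.4% (KO A) and 88.3% (KO B) of miR-2137 reads. It was present in 6.70%, 0.685%, 2.24% and 4.81% of miR-8098 reads. The difference within a library was 89.7 ± 5.1 percentage points (SD, n = 4 libraries, exact sign-flip test, two-sided, p = 0.13). On the complement of the target, miR-8098 had a seed match in 0.420% of reads. Since most miR-2137 targets were a single stretch that holds these letters, the matches are not separate observations.

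WT and miR-379KO libraries were compared to see whether the deletion of miR-379 went along with the number of these hybrids. miR-2137 made up 111 (95% Clopper-Pearson interval 95.4 to 128), 631 (576 to 690), 479 (428 to 535) and 198 (165 to 235) per 10000 chimeric reads in WT A, WT B, KO A and KO B. The genotypes overlapped, with the lowest and the highest value both in WT. miR-8098 made up 448 (417 to 481), 406 (362 to 454), 424 (375 to 476) and 578 (522 to 637) per 10000, and the genotypes overlapped as well. The intervals cover counting error only, since reads without molecular identifiers are not separate molecules.

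**Figure D4:**
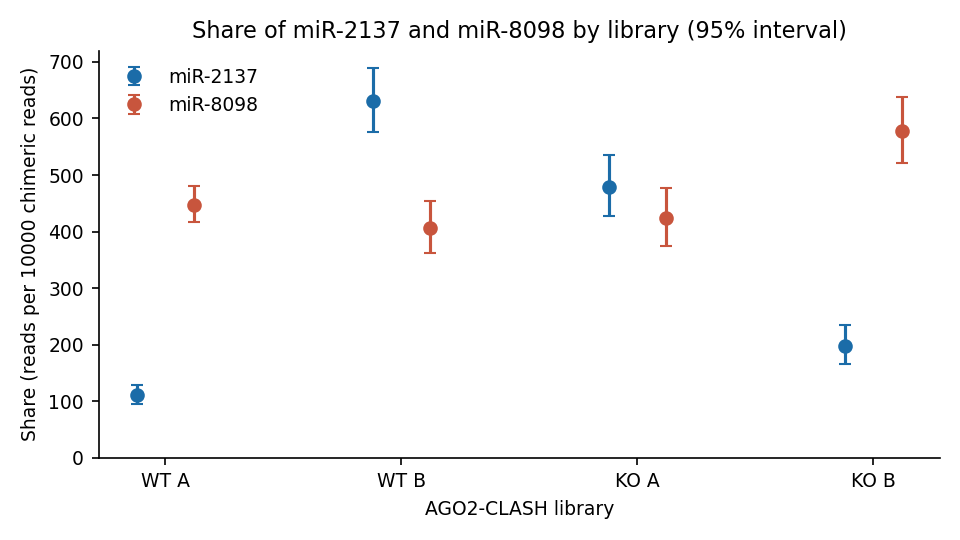
Reads of miR-2137 and miR-8098 per 10000 chimeric reads (y axis) in each library (x axis); points are the libraries and bars the 95% Clopper-Pearson interval. miR-2137 ranges from 111 in WT A to 631 in WT B, and neither miRNA separates the genotypes.

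No miRNA passed the test between the genotypes. With edgeR's quasi-likelihood test and Benjamini-Hochberg adjustment, 0 of 628 miRNAs (0.00%) had an adjusted p under 0.05, 27 (4.30%) had an unadjusted p under 0.05, and DESeq2 called 0. As log2 of WT over miR-379KO, the fold change was 0.16 for miR-2137 (SE 0.71, edgeR adjusted p = 0.993) and -0.31 for miR-8098 (SE 0.70, edgeR adjusted p = 0.993). The value for miR-2137 was 1.03 without WT A and 0.95 without KO A, and its direction turned without WT B (-1.91), without KO B (-0.33) and with the letters as a replicate block (-0.30), and that of miR-8098 came to -0.044 without KO B. The mean share of miR-2137 was 371 ± 368 in WT and 338 ± 199 per 10000 in miR-379KO (SD, n = 2 each, exact permutation test, two-sided, p = 1.0). That of miR-8098 was 427 ± 30 in WT and 501 ± 109 per 10000 in miR-379KO (SD, n = 2 each, exact permutation test, two-sided, p = 0.667). The difference of miR-8098, WT minus miR-379KO (-73.7), turned to 3.26 without KO B and was -151 without KO A. The smallest p that 2 libraries against 2 allow is 0.333.

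Pairs of a miRNA and a target gene were tested in the same way, and 0 of 632 pairs (0.00%) were called by edgeR and 0 by DESeq2, while 15 (2.37%) had an unadjusted p under 0.05 with edgeR. The pair of miR-2137 and Gm42418 had a log2 fold change of 0.24 (SE 0.83) and that of miR-8098 and Rn18s-rs5 -0.22 (SE 0.83), each with an edgeR adjusted p of 0.987. Without 1 library, the first was 1.14 (WT A), -2.19 (WT B), 1.43 (KO A) or -0.39 (KO B). The second was then 0.094 (WT A), -0.62 (WT B), -0.33 (KO A) or -0.059 (KO B). miR-8098 and Lars2 had -1.17 (SE 0.91, edgeR adjusted p = 0.987), which ranged from -2.23 without WT A to -0.11 without KO B when each library was left out (-0.64 without WT B, -1.72 without KO A). In shares per 10000, miR-8098 with Flna was higher in both WT libraries (2.78 and 4.29) than in the miR-379KO libraries (0 and 1.54), and miR-8098 with Acta2 lower (0 and 4.29 against 4.63 and 4.74). Of all pairs tested, 16.9% were higher in WT without overlap and 11.9% lower, and these counts lie near the floor of 3 reads per library.

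The libraries with the higher miR-2137 share also had more copies of each of its reads. WT B and KO A had 2.64 and 2.55 reads per distinct miR-2137 read, and WT A and KO B had 1.33 and 1.29. The same libraries differed for miR-8098, with 1.60 and 1.56 against 1.18 and 1.15. So did all chimeric reads together, with 1.48 and 1.46 against 1.15 and 1.14 reads per distinct read. WT B and KO A also had shorter miR-2137 reads (median 65.0 nt in both, against 94.0 in WT A and 93.0 in KO B). The part of duplication or read length in the shares was not tested. With each sequence counted once over all libraries, 448 distinct miR-2137 sequences remained, of which 398 occurred in 1 library, 29 in 2, 14 in 3 and 7 in all 4. Of 1216 distinct miR-8098 sequences counted in this way, 1148 occurred in 1 library, 55 in 2, 10 in 3 and 3 in all 4. Of all 28227 distinct chimeric sequences, these included, 27604 occurred in 1 library, 454 in 2, 121 in 3 and 48 in all 4. The difference from these counts was not tested.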

How the data were processed

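The data were hybrid reads of 4 AGO2-CLASH libraries of MMC. The authors merged read pairs with pear, removed merged reads that Bowtie2 2.1.0 (per the submitters' processing notes) placed on the mouse genome (GRCm38.p5) or its transcripts, and compared what was left with mature miRNAs and with mRNAs by blastn in both orientations. The deposited counts are whole numbers of identical merged reads, without normalization. The deposited score and MFE of each pair are values of the authors whose tool and unit are not given in the sources used here. The miRNA, read and transcript positions were deposited as well, and a start above the end was taken as antisense.

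Members and gene lists were chosen with earlier results of these data known. Each distinct read was counted once per library, miRNA and gene. Named genes were the 5 target genes with most reads per miRNA, all ribosomal RNA genes listed, and the 3 miRNAs with the most alike targets. Counts per miRNA and per pair (at least 10 reads over the 4 libraries) entered edgeR 4.0.16 under R 4.3.3 (quasi-likelihood test, TMM, genotype term) at an adjusted p-value of 0.05. DESeq2 1.42.0 was an alternative. Pair counts used the library sizes of the miRNA table. Shares have 95% Clopper-Pearson intervals, and the floor of 3 reads was 1.84 to 4.74 per 10000. Exact tests were the permutation over 4 libraries and the sign flip of the differences within libraries. The 6 differences between the miRNAs were not adjusted, since their smallest p is 0.125. Read forms were searched on both strands of GRCm38 as exact matches. The deposited positions refer to older transcript models than the GENCODE M21 ones used for 18S and Lars2. RNAduplex 2.7.2, Python 3.11.15, scipy 1.17.1 and matplotlib 3.10.9 were used. The exact tests, the calling of substitutions and the edgeR test were tried on simulated data. Alternatives were a replicate block, no TMM, no minimum count, each distinct sequence once, miRNA alignments of 16 nt or more, alignments free of mismatches, reads listed with 1 miRNA and 1 gene, seed bases 2 to 8, and leaving out each library.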

Additional observations from a re-analysis of the deposited data

How the results depend on the processing

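The genotype comparisons of miR-2137 rested on single libraries. Its log2 fold change of WT over miR-379KO (0.16) turned to -0.30 with the replicate block, to -0.070 with each distinct sequence counted once, to -1.91 without WT B and to -0.33 without KO B. Its difference in share (32.8 per 10000) turned to -0.289 with distinct sequences, to -9.36 with alignments free of mismatches, to -227 without WT B and to -108 without KO B. That of miR-8098 (-73.7 per 10000) turned to 3.26 without KO B. Among pairs, miR-2137 with Gm42418 (0.24) turned to -0.25 with the replicate block, -2.19 without WT B and -0.39 without KO B, and was 1.14 without WT A, 1.43 without KO A and 0.054 with distinct sequences. miR-2137 with Gm26917 (0.12) turned to -0.66 with the replicate block, -0.41 with distinct sequences, -4.17 without WT B and -0.49 without KO A, and was 1.22 without WT A and 1.34 without KO B. miR-2137 with Rn18s-rs5 (-0.13) turned to 0.23 with alignments of at least 16 nt and to 0.40 without WT A, and was -0.87 without WT B. miR-8098 with Rn18s-rs5 (-0.22) turned to 0.094 without WT A and was -0.62 without WT B and -0.059 without KO B. miR-8098 with Gm28661 (0.61) turned to -0.041 with the replicate block and was 1.29 without WT B. Without sign changes, the log2 fold change of miR-2137 came to 1.03 without WT A and 0.95 without KO A, its difference in share to 293 and 173, and that of miR-8098 to -151 without KO A and -6.48 with alignments free of mismatches. Leaving out a library moved the log2 fold change of miR-8098 from -0.31 to between -0.49 (without KO A) and -0.044 (without KO B), and miR-8098 with Lars2 from -1.17 to between -2.23 and -0.11. Its pair with Acta2 (-1.05) was -0.42 without WT B and that with Flna (1.93) was 1.09 without KO A. None of these values passed the threshold, and the cause was not tested. No miRNA and no pair was called by edgeR with the replicate block, without TMM, without a minimum count, with distinct sequences, with alignments of at least 16 nt or without each library, nor by DESeq2. The remaining alternatives were not applied to these tests. The deviations of WT A and KO A over 628 miRNAs had r = -0.063, and those of WT A and KO B r = 0.063. With 2 libraries per genotype, the deviations of A and B mirror each other. This check thus cannot decide whether the letters pair the libraries.

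Of the differences between the miRNAs within libraries, that in ribosomal RNA targets (18.8 percentage points) turned to -3.82 with alignments free of mismatches, which only 3 libraries held for both miRNAs. With these few reads, 87.1% of miR-2137 and 94.4% of miR-8098 reads had such a target. The other differences kept their direction under each alternative that gave a value, but not their size. With alignments free of mismatches, the difference in aligned length fell to 1.75 nt, that in sense reads rose to 100 percentage points, since all 18 such miR-8098 reads were antisense, and that in reads with the miRNA first went from -10.2 to -40.4. The last was -2.39 with distinct sequences and -1.42 without WT B, and the sense difference (1.28) was 0.835 without KO A. With alignments of at least 16 nt no miR-8098 read was left, so that no difference could be computed. A hybrid at 0 reads may still have a share up to the floor of 3 reads per library (1.84 to 4.74 per 10000), and 2 libraries per genotype limit each genotype comparison.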
